A study of Homo sapiens with 9 samples.

Results

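The Wnt genes described here are the ligands (WNT), Frizzled receptors (FZD), co-receptors (LRP5, LRP6), secreted antagonists (DKK, SFRP) and core intracellular factors (AXIN1, AXIN2, CTNNB1, LEF1, TCF7, TCF7L1, TCF7L2) of the Wnt pathway. They were taken by gene symbol, by a rule that holds no measured value but was set with earlier results of these data known, and number 46 of the 26475 symbols in the count table. RNA came from A375, an established human melanoma cell line that carries a BRAF mutation, and for 24 h the cells had received either the solvent DMSO as control or TP-472 at 5 µM or at 10 µM. TP-472 is a small molecule that inhibits the bromodomain proteins BRD9 and BRD7, which are subunits of SWI/SNF chromatin remodeling complexes. Each of the 3 groups has 3 libraries, described as biological replicates, and all of them are the same cell line with no other agent named, so the data speak for 1 line at 1 time.

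Wnt proteins are lipid-modified secreted ligands that bind Frizzled receptors. When LRP5 or LRP6 joins the receptor, the AXIN-based destruction complex is inhibited, β-catenin (the product of CTNNB1) accumulates and TCF/LEF factors switch on target genes, whereas in the non-canonical branch ligands such as WNT5A act on cell polarity and movement without β-catenin. DKK1 blocks LRP5 and LRP6, SFRP proteins bind the ligands themselves, and in melanoma WNT5A is known for its association with invasive, dedifferentiated cells.

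Of the 46 genes, 35 had enough counts to be tested: 13 of 19 ligands, 9 of 10 Frizzled receptors, both LRP co-receptors, 3 of 4 DKK genes, 1 of 4 SFRP genes, both AXIN genes, the 4 TCF/LEF genes and CTNNB1. Among the 11 that were not tested, DKK4, SFRP4, WNT2, WNT8A and WNT9B were at 0 in all 9 libraries. The highest expected count in any library was 14 for SFRP5, 12 for WNT5B, 10 for SFRP2, 4 for FZD10, 2 for WNT1 and 1 for WNT3A. The melanoma label of the cells was checked on 13 melanocyte and melanoma markers. SOX10 (417 CPM in DMSO) and MCAM (222 CPM) were high and not called changed, TYR was at 0 in all 9 libraries and DCT reached 1 count. PMEL, MLANA, TYRP1 and GPR143 were low as well, at 1.48, 0.173, 0.331 and 0.273 CPM in DMSO. CSPG4, ERBB3, MITF, S100B and S100A1 were at 704, 215, 31.9, 7.09 and 3.11 CPM there. Summed over that list, the level was 1600 to 1605 CPM under DMSO, 1280 to 1307 CPM at 5 µM and 953.7 to 1039 CPM at 10 µM, with CSPG4, ERBB3 and S100A1 called lower at 10 µM. Of 14 markers of keratinocytes, fibroblasts, endothelium and leukocytes, 10 were tested. CD68, which macrophages and many tumor cells express, was called higher at both doses, COL3A1 and PDGFRA were called lower at 10 µM, and CD3E was at 0 throughout. The sum without CD68 was 16.7 to 18.5 CPM under DMSO, 16.1 to 18 CPM at 5 µM and 12.9 to 18.6 CPM at 10 µM. In RNA from whole cultures, fewer cells that express a gene and less RNA of it per cell cannot be told apart.

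The libraries held 42483091 to 51298130 counts, and CPM below is the usual count per unit of depth, with library sizes scaled by TMM. The library of 10 µM replicate 1 stood apart: its median absolute log2 deviation from the other libraries of its group was 0.322, against 0.190 and 0.199 for the other 10 µM libraries and 0.0606 to 0.0997 in the remaining groups. It had the lowest 10 µM value for 19 of the 35 tested Wnt genes and the highest for 10, and calls that change without it are given with the gene. The compound's targets were not called at either dose: mean BRD9 mRNA was 37.6 ± 0.967 CPM (SD, n = 3) in DMSO against 45.4 ± 5.56 CPM at 10 µM, and BRD7 mRNA 88.1 ± 0.374 against 77.0 ± 8.93 CPM. Since TP-472 acts on the proteins, these mRNA levels do not check the labels.

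The promoter sequences of DKK1 and WNT9A, the only Wnt genes called higher, and of LRP5 and WNT6, a co-receptor and a ligand called lower, show the DNA just upstream of genes that moved in opposite directions. Each is the stretch of 250 bases ahead of the RefSeq gene start on GRCh38.p14, given 5′ to 3′ on the gene's strand in lower case, with matches to the core motif of TCF/LEF factors (CTTTGAT or CTTTGAA, sought on both strands, not overlapping each other) in capitals. Their positions are chr10:52314031-52314280 (plus strand) for DKK1, chr1:227947933-227948182 (minus strand) for WNT9A, chr11:68312341-68312590 (plus strand) for LRP5 and chr2:218859555-218859804 (plus strand) for WNT6. In GENCODE 29 no annotated gene spans the WNT9A, LRP5 or WNT6 stretch, whereas all 250 bases of the DKK1 stretch lie in exon sequence of PRKG1-AS1 on the opposite strand.
DKK1 promoter: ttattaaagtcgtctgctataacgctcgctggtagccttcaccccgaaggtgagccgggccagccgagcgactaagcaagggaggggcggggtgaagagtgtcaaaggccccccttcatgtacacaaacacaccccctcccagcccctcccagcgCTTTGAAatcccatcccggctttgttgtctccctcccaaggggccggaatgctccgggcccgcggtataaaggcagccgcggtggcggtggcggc
WNT9A promoter: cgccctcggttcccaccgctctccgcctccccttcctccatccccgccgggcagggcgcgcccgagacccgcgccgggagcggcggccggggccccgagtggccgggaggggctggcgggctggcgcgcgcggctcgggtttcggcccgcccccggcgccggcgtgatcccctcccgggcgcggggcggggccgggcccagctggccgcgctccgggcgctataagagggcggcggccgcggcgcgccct
LRP5 promoter: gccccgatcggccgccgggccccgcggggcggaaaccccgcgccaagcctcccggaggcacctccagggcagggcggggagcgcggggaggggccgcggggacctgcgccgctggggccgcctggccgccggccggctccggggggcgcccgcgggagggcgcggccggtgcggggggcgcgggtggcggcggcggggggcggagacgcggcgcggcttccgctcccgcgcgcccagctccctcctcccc
WNT6 promoter: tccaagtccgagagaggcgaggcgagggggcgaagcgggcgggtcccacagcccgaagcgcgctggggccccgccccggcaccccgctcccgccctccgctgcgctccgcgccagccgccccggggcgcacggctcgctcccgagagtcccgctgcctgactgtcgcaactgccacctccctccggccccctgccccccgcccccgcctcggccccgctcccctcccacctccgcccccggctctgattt
The RefSeq table held promoters for 32 of the 46 genes. DKK1 was the 1 gene of these 32 with a motif match, which began 95 bases before the start, while 6.03% of all 27305 promoters had one. A match of these letters is a description and not evidence of binding, and no binding was measured. The promoters printed were rich in G and C: 62.8% for DKK1, 84.4% for WNT9A, 87.2% for LRP5 and 79.2% for WNT6, against a median of 58% over all promoters, and they held 18, 44, 43 and 32 CpG dinucleotides against a median of 11. The 32 Wnt gene promoters had a median of 72.2% G and C, so this composition was common among them but not shared by all. WNT8B, LEF1 and WNT5A, at 45.2%, 47.6% and 52.8%, were under the median of all promoters, as were WNT8A, WNT5B and SFRP2.

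To ask how the inhibitor changed the Wnt genes, each dose was compared with DMSO and the doses with each other. A gene was called higher or lower when its Benjamini-Hochberg adjusted p from the edgeR quasi-likelihood test over 16417 genes was under 0.05 and its fold change at least 1.5. At 10 µM, 11 of the 35 tested Wnt genes (31.4%) were lower than in DMSO, where 10.5% of all tested genes were lower, and 2 (5.71%) were higher, where 8.57% of all tested genes were higher. At 5 µM, 3 genes (8.57%) were lower against 2.72% of all tested genes, and 2 (5.71%) were higher against 2.14%. Between the doses, 5 genes (14.3%) were lower at 10 µM than at 5 µM against 2.59% of all tested genes, and 1 (2.86%) was higher against 1.42%. The median log2 fold change of the 35 genes was −0.25 at 5 µM and −0.28 at 10 µM, beside medians of 0.0054 and 0.011 over all tested genes. The genes called at 5 µM were DKK1 and WNT9A (higher) and DKK3, FZD1 and FZD2 (lower), and all 5 were called in the same direction at 10 µM, where FZD6, LRP5, SFRP1, WNT5A, WNT6, LEF1, TCF7 and TCF7L1 were lower as well. Of these, WNT6 had enough counts to be tested only through the DMSO libraries. Both dose comparisons use the same DMSO libraries.

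**Figure D1:**
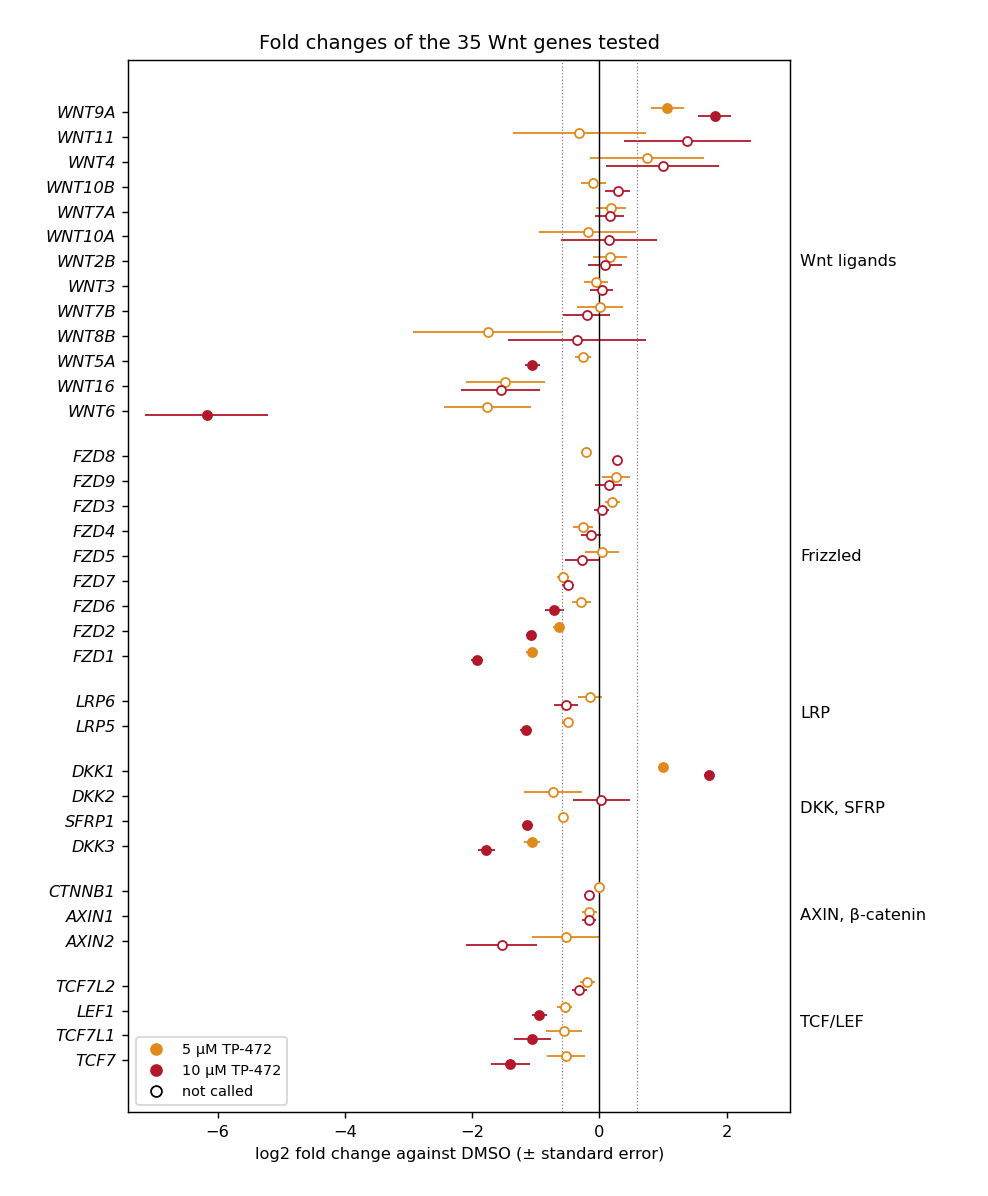
Fitted log2 fold change against DMSO (horizontal axis, ± standard error) of the 35 Wnt genes tested, by role, at 5 µM (orange) and 10 µM (red), with filled points for called genes and dotted lines at the 1.5-fold limit. At 10 µM, 11 filled points lie to the left of 0 and 2, DKK1 and WNT9A, to the right.

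Of the ligands, WNT5A and WNT6 were lower and WNT9A higher at 10 µM, and the other 10 tested were not called in any comparison. The 2 lower were 15.4% of the 13 tested ligands, against 10.5% of all tested genes, and the 1 higher was 7.69%, against 8.57%. WNT5A, the prototype non-canonical ligand, was at 140, 140 and 146 CPM in the DMSO libraries, 120, 117 and 121 CPM with 5 µM and 53.6, 79.8 and 72.2 CPM with 10 µM. The groups did not overlap, and 10 µM replicate 1 was the lowest. Its log2 fold change at 10 µM was −1.05 ± 0.12 (SE, adjusted p = 0.000176 with the edgeR quasi-likelihood test), and against 5 µM it was −0.80 ± 0.12 (adjusted p = 0.00442). At 5 µM the fitted change from DMSO was −0.25 ± 0.12 (adjusted p = 0.245), so most of the difference lay between 5 and 10 µM. That p rests on a spread shared by all 3 groups, with SDs of 3.06, 2.28 and 13.5 CPM in DMSO, 5 µM and 10 µM. Over 16 alternatives by edgeR or DESeq2 the adjusted p at 5 µM ran from 4.5e-05 to 0.484. The change was under the 1.5-fold limit in each. WNT5A was the ligand with the highest level per kb of exon in DMSO, at 19.2 ± 0.41 CPM per kb (SD, n = 3), and it made up 77.5% ± 1.29 of the ligand CPM per kb there, 73.9% ± 0.854 at 5 µM and 55.8% ± 3.41 at 10 µM. The ligand sum itself was 24.0 to 25.7 CPM per kb in DMSO and 13.8 to 18.2 CPM per kb at 10 µM. Its relative WNT5B, with at most 12 counts, was not tested.

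WNT9A, a ligand known from joint and blood stem cell development, was at 2.72, 2.61 and 3.17 CPM under DMSO, 7.40, 5.23 and 5.17 CPM with 5 µM and 7.11, 8.54 and 14.1 CPM with 10 µM. Every treated library was above every DMSO library, while the 2 doses overlapped. The log2 fold change was 1.07 ± 0.26 at 5 µM (edgeR adjusted p = 0.0310) and 1.81 ± 0.26 at 10 µM (adjusted p = 0.000644). The call at 5 µM was lost without any 1 of the 6 DMSO and 5 µM libraries, with an edgeR adjusted p of up to 0.127, whereas the call at 10 µM held in all 16 alternatives. Between the doses the log2 difference was 0.74 ± 0.25 (edgeR adjusted p = 0.106), and without 10 µM replicate 1 it was 0.93 with an adjusted p of 0.00398. WNT9A lies on chromosome 1 (GRCh38, 227918656 to 227947898), beside WNT3A, which had 1 count in 1 library.

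WNT6, a ligand expressed in ectoderm and linked to epithelial differentiation, was a low gene, at 0.423, 0.741 and 0.827 CPM under DMSO, 0.285, 0.155 and 0.144 CPM with 5 µM and 0, 0.0192 and 0 CPM with 10 µM. These values stand for 92 counts over the DMSO libraries, 28 at 5 µM and 1 at 10 µM, and the groups did not overlap. The counts were 21, 36 and 35 in DMSO, 13, 8 and 7 at 5 µM and 0, 1 and 0 at 10 µM. WNT6 thus had enough counts to be tested only through the DMSO group, and its place among the lower genes is not independent of that filter. With no filter it was still called at 10 µM. Scaled for depth, the DMSO level was 97.8 times that at 10 µM, with a 95% interval of 17.1 to 3906 for counting error only (exact conditional binomial), and 3.41 times that at 5 µM (2.21 to 5.41). The edgeR adjusted p was 0.000978 for 10 µM against DMSO, 0.140 for 5 µM against DMSO and 0.0257 for 10 µM against 5 µM. At 5 µM WNT6 was called lower than in DMSO in a fit of the 2 groups. The call between the doses was lost in 9 of 15 alternatives, among them without any 1 of the DMSO or 5 µM libraries or 10 µM replicate 3, with an edgeR adjusted p of up to 0.178, and the fitted log2 change from DMSO moved from −6.17 to −8.0 without 10 µM replicate 2, the library that holds the single count. WNT6 lies on chromosome 2 (218859821 to 218874233) upstream of its neighbor WNT10A, which was at 0.204 ± 0.142 CPM in DMSO and 0.226 ± 0.0616 CPM at 10 µM (SD, n = 3) and was not called.

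The ligands that were not called spanned mean DMSO levels from 0.130 CPM (WNT4) to 6.19 CPM (WNT3), and 5 of the 13 tested ligands had a fitted change below 0 at 10 µM and 8 above. WNT3, a canonical ligand, was at 6.19 ± 0.803 CPM in DMSO and 6.32 ± 1.47 CPM at 10 µM. WNT10B, known for holding back fat cell formation, was at 4.2 ± 0.126 CPM in DMSO and 5.11 ± 0.756 CPM at 10 µM. WNT16, known from bone and joint, went from 1.05 ± 0.233 to 0.357 ± 0.239 CPM, a fitted log2 change of −1.55 ± 0.62 that missed the threshold (edgeR adjusted p = 0.0796) and was called by DESeq2. At 5 µM WNT16 was called lower in a fit of the 2 groups and without 10 µM replicate 1. WNT11, a non-canonical ligand, was at 0.992 CPM in 10 µM replicate 1 and at 0.211 and 0.0611 CPM in the other 10 µM libraries, against 0.0805 to 0.260 CPM in DMSO (log2 change 1.38, edgeR adjusted p = 0.322). Without 10 µM replicate 1 the sign of the WNT11 change turned (−0.22). For ligands under about 1 CPM, such as WNT4, WNT8B, WNT10A and WNT11, standard errors were 0.75 to 1.09 log2 units at 10 µM. A call needs a change well beyond 1 standard error, so even changes larger than these could go undetected at this depth.

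**Figure D2:**
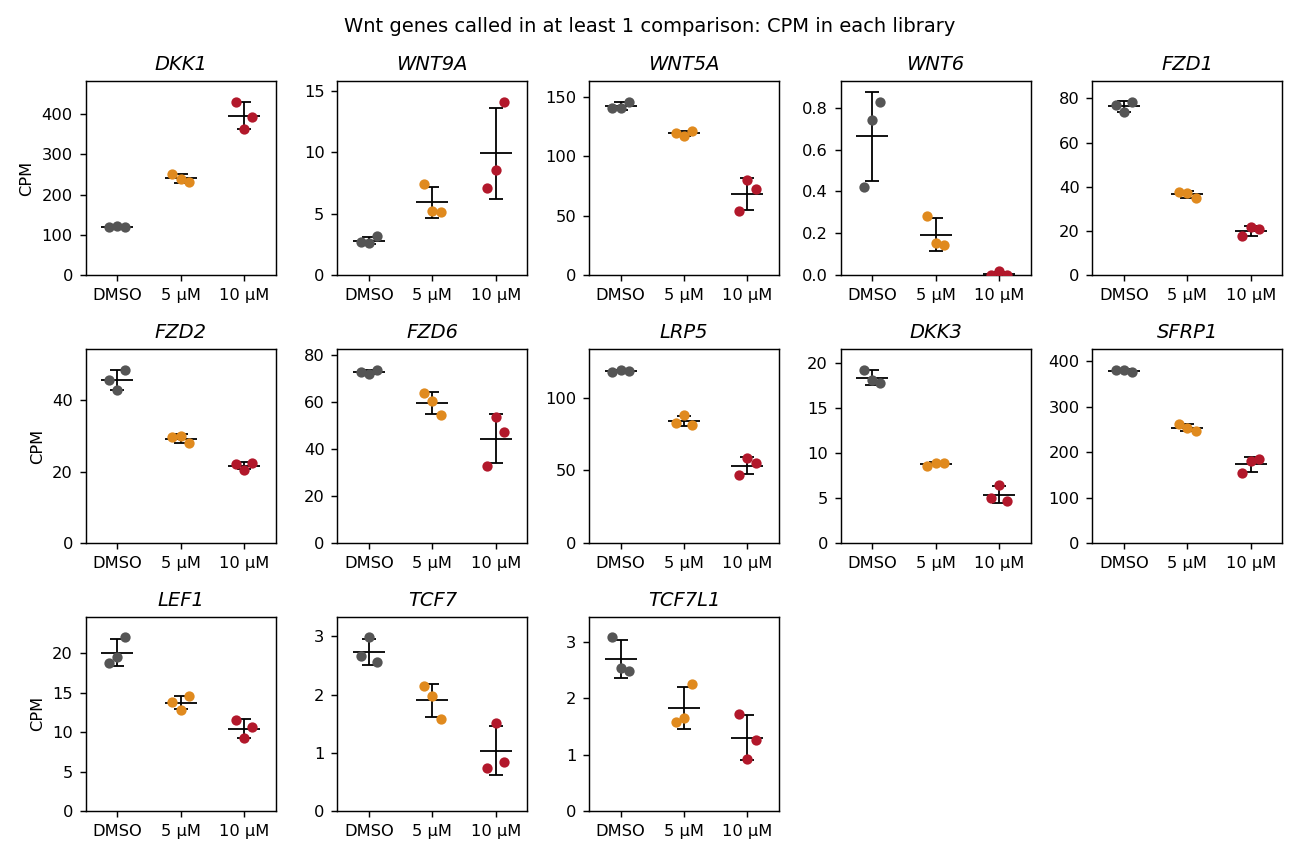
CPM (vertical axis, from 0, own scale in each panel) of the 13 called Wnt genes in each of the 9 libraries, with DMSO in gray, 5 µM in orange and 10 µM in red, and lines for the mean ± SD of 3 libraries. For all 11 lower genes the DMSO points lie above the 10 µM points, and for DKK1 and WNT9A below them. The genes were picked for the panels by these calls, so the separation is not further evidence for them.

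Among the receptors, FZD1, FZD2 and FZD6 (33.3% of those tested, against 10.5% of all tested genes) were lower at 10 µM. The other 6 tested Frizzled genes were not called. FZD1, a receptor used in canonical signaling, was at 76.9, 73.8 and 78.5 CPM under DMSO, 37.6, 37.2 and 34.9 CPM with 5 µM and 17.6, 21.8 and 21.1 CPM with 10 µM. Each dose lay wholly below the one before it. The log2 fold change was −1.06 ± 0.09 at 5 µM (edgeR adjusted p = 0.000112), −1.92 ± 0.09 at 10 µM (adjusted p = 7.27e-07) and −0.86 ± 0.09 between the doses (adjusted p = 0.000590), and all 3 calls held in every alternative tried.

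FZD2, a close relative of FZD1 and a receptor for WNT5A, was at 45.5, 42.7 and 48.5 CPM under DMSO, 29.8, 30.1 and 27.9 CPM with 5 µM and 22.2, 20.5 and 22.3 CPM with 10 µM, without overlap between groups. It fell by 0.64 ± 0.08 on the log2 scale at 5 µM (edgeR adjusted p = 0.00112) and by 1.07 ± 0.08 at 10 µM (adjusted p = 1.05e-05). The difference between the doses, −0.43 ± 0.08, passed the p threshold (edgeR adjusted p = 0.0119) but was under 1.5-fold and so was not called. FZD6, which acts in planar cell polarity and hair patterning, was at 72.6, 71.7 and 73.7 CPM under DMSO, 63.8, 60.6 and 54.3 CPM with 5 µM and 32.8, 53.5 and 47.1 CPM with 10 µM. Its 10 µM libraries were spread more widely than its DMSO libraries, with replicate 1 the lowest. The log2 change at 10 µM was −0.71 ± 0.15 (edgeR adjusted p = 0.00548), and without 10 µM replicate 1 it was −0.53, under the 1.5-fold limit. FZD1 and FZD2 had fractional expected counts in 6 and 7 libraries, which means that some of their reads were shared with other genes.

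FZD7 and FZD8 passed the p threshold but not the fold limit. FZD7, often used by stem cells and tumors, was at 20.5 ± 1.84 CPM under DMSO, 13.8 ± 0.398 CPM with 5 µM and 14.6 ± 0.624 CPM with 10 µM (log2 changes −0.57 and −0.49, edgeR adjusted p = 0.00450 and 0.00303). At 5 µM FZD7 was called lower without DMSO replicate 3 or 5 µM replicate 3. FZD8, also a canonical receptor, was at 25.3 ± 0.861, 21.8 ± 1.66 and 30.7 ± 0.533 CPM, and its 10 µM libraries lay above those of both other groups (log2 difference from 5 µM 0.49 ± 0.08, edgeR adjusted p = 0.00668). FZD3, FZD4, FZD5 and FZD9 had fitted changes between −0.28 and 0.14 at 10 µM and were not called. Summed per kb of exon, the Frizzled genes were at 63.5 to 67.2 CPM per kb in DMSO, 44.6 to 48.4 CPM per kb with 5 µM and 36 to 41 CPM per kb with 10 µM. The share of FZD1 in this sum went from 16.7% ± 0.1 in DMSO to 7.40% ± 0.325 at 10 µM, while that of FZD6 was 27.2% ± 0.529 and 27.7% ± 4.92.

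The 2 co-receptors take part in β-catenin signaling in the same way, but LRP5 was called and LRP6 was not. LRP5 was at 118, 119 and 118 CPM under DMSO, 82.4, 87.9 and 81.3 CPM with 5 µM and 46.6, 58.3 and 55.1 CPM with 10 µM, with no overlap between groups. Its log2 change was −0.50 ± 0.09 at 5 µM, under the fold limit (edgeR adjusted p = 0.00670), and −1.15 ± 0.09 at 10 µM (adjusted p = 1.13e-05). Between the doses it was −0.65 ± 0.09 (edgeR adjusted p = 0.00214), a call that was lost without 10 µM replicate 1 (−0.57). LRP6 was at 99.9, 104 and 101 CPM under DMSO, 89.3, 90.7 and 94.2 CPM with 5 µM and 45.4, 82.2 and 83.2 CPM with 10 µM. Here 10 µM replicate 1 lay far below the other libraries of its group. The fitted log2 change at 10 µM was −0.53 ± 0.19 (edgeR adjusted p = 0.0518). It passed when 10 µM replicate 2 or 3 was left out (−0.66 and −0.67), and without replicate 1 it was −0.30, under the fold limit. The difference between the changes of LRP5 and LRP6 was not tested.

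The antagonist genes SFRP1 and DKK1 held the highest levels of all 46 genes per kb of merged exon in DMSO. They were at 79.5 ± 0.670 and 54.3 ± 0.612 CPM per kb (SD, n = 3), ahead of CTNNB1 at 31.3 ± 0.207. This order depends on the merged lengths, which were 4761, 2206 and 11927 bases for SFRP1, DKK1 and CTNNB1. Not divided by length, the DMSO means were 378, 120 and 373 CPM. DKK1, which closes LRP5 and LRP6 to Wnt ligands, was at 119, 121 and 119 CPM under DMSO, 251, 237 and 231 CPM with 5 µM and 430, 362 and 393 CPM with 10 µM. Every library at a higher dose was above every library at a lower one. The log2 fold change was 1.00 ± 0.08 at 5 µM (edgeR adjusted p = 6.22e-05), 1.72 ± 0.08 at 10 µM (adjusted p = 4.86e-07) and 0.72 ± 0.08 between the doses (adjusted p = 0.000534), and all 3 calls held in each alternative. On chromosome 10 (52314296 to 52318042), 9.61% of the DKK1 exon bases overlap PRKG1-AS1 on the opposite strand, and the sources used here do not say if strand entered the counting.

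SFRP1, a secreted Frizzled-related protein that binds Wnt ligands, moved the other way, at 381, 379 and 374.8 CPM under DMSO, 261, 253 and 246 CPM with 5 µM and 154, 180 and 184 CPM with 10 µM. The groups did not overlap. It fell by 1.13 ± 0.08 on the log2 scale at 10 µM (edgeR adjusted p = 5.95e-06), and its changes of −0.58 ± 0.08 at 5 µM (adjusted p = 0.00151) and −0.55 ± 0.08 between the doses (adjusted p = 0.00260) were just under the fold limit. SFRP1 was called lower at 5 µM without DMSO replicate 3 or 5 µM replicate 1, and between the doses without 10 µM replicate 2 or 3. DKK3, a divergent DKK family member that does not bind LRP5 or LRP6 as DKK1 does, was at 19.3, 18.2 and 17.8 CPM under DMSO, 8.61, 8.93 and 8.89 CPM with 5 µM and 4.98, 6.44 and 4.69 CPM with 10 µM. Its groups were also fully separate. The log2 change was −1.06 ± 0.13 at 5 µM (edgeR adjusted p = 0.000839), −1.78 ± 0.13 at 10 µM (adjusted p = 8.14e-06) and −0.71 ± 0.13 between the doses (adjusted p = 0.00992), the last of which was lost in a fit of the 2 groups alone (adjusted p = 0.0951). DKK2 was at 0.728 ± 0.175 CPM in DMSO and 0.743 ± 0.189 CPM at 10 µM and was not called.

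As DKK1 and SFRP1 moved in opposite directions, the makeup of the antagonists turned over. SFRP1 held 57.7% ± 0.200 of the summed DKK and SFRP CPM per kb in DMSO, 32.5% ± 0.321 at 5 µM and 16.8% ± 2.32 at 10 µM. DKK1 held 39.4% ± 0.306, 66.3% ± 0.346 and 82.6% ± 2.42 of the same sum. The sum itself was 136 to 139 CPM per kb in DMSO, 158 to 171 CPM per kb with 5 µM and 203 to 228 CPM per kb with 10 µM, with no overlap between groups. These are mRNA shares, and the lengths are those of all annotated exons of a gene merged, which lowers the value per kb of genes with many transcripts.

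**Figure D3:**
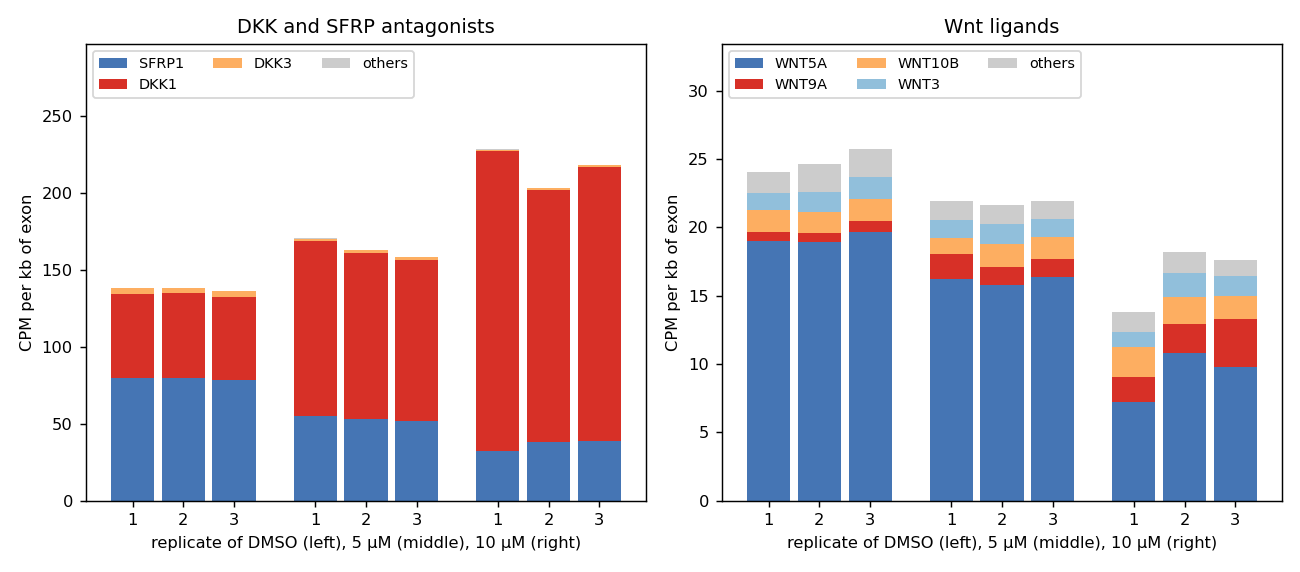
CPM per kb of exon (vertical axis, from 0) summed over the antagonist genes (left) and the ligand genes (right) in each of the 9 libraries, with colored segments for single genes. The DKK1 segment grows and the SFRP1 segment shrinks with dose, and the WNT5A segment of the ligand sum shrinks at 10 µM.

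Inside the cell, CTNNB1 and AXIN1 were not called while 3 of the 4 TCF/LEF factors (75%, against 10.5% of all tested genes) were lower at 10 µM. CTNNB1, which encodes β-catenin, was at 371, 376 and 374 CPM under DMSO, 378, 368 and 369 CPM with 5 µM and 295, 359 and 348 CPM with 10 µM. The 10 µM libraries lay below the others, replicate 1 the most, and the fitted log2 change was −0.16 ± 0.08 (edgeR adjusted p = 0.148), or −0.081 without that library. AXIN1, a scaffold of the destruction complex, was at 39.5, 40.4 and 41.6 CPM under DMSO, 35, 39.1 and 34.8 CPM with 5 µM and 43.0, 33.9 and 31.8 CPM with 10 µM, where the libraries lay on both sides of the DMSO values (−0.16 ± 0.11, edgeR adjusted p = 0.310). Without 10 µM replicate 1, the library above DMSO, the AXIN1 change was −0.30 and passed the p threshold but not the fold limit (edgeR adjusted p = 0.00198), and without replicate 3 it was −0.076 (adjusted p = 0.644). AXIN2, the inducible scaffold that is widely read as a marker of β-catenin activity, is given by library though it was not called, and was at 2.52, 2.00 and 1.96 CPM under DMSO, 0.811, 1.99 and 1.68 CPM with 5 µM and 0.227, 0.654 and 1.34 CPM with 10 µM. The 10 µM libraries were all below the DMSO libraries and spread widely among themselves. The fitted log2 change of −1.54 ± 0.56 missed the threshold (edgeR adjusted p = 0.0566), and it was called by DESeq2, with a replicate block and without 10 µM replicate 1 or replicate 3. Of the AXIN2 exon bases, 25.2% overlap AC004805.1 on the same strand.

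LEF1, the TCF/LEF factor that canonical signaling itself induces, was at 18.7, 19.5 and 22 CPM under DMSO, 13.8, 12.9 and 14.6 CPM with 5 µM and 11.5, 9.19 and 10.6 CPM with 10 µM. The 3 groups were separate, with a log2 change of −0.55 ± 0.11 at 5 µM, under the fold limit (edgeR adjusted p = 0.0136), and −0.94 ± 0.11 at 10 µM (adjusted p = 0.000199). Without DMSO replicate 1 or 5 µM replicate 3, LEF1 was called lower at 5 µM. TCF7, best known from T cells, was at 2.66, 2.98 and 2.55 CPM under DMSO, 2.15, 1.98 and 1.58 CPM with 5 µM and 0.744, 1.52 and 0.835 CPM with 10 µM (log2 change at 10 µM −1.40 ± 0.31, edgeR adjusted p = 0.00652). TCF7L1, mostly a repressor of Wnt targets, was at 3.08, 2.53 and 2.48 CPM under DMSO, 1.58, 1.65 and 2.26 CPM with 5 µM and 1.71, 0.923 and 1.26 CPM with 10 µM. All TCF7 and TCF7L1 libraries at either dose were below the DMSO libraries. The TCF7L1 log2 change at 10 µM was −1.05 ± 0.29 (edgeR adjusted p = 0.0186), and without DMSO replicate 1 it missed the threshold (adjusted p = 0.0778). TCF7L2 held the largest share of the TCF/LEF sum per kb, 67.2% ± 1.25 in DMSO, and was not called, at 64.0 ± 1.03 CPM in DMSO and 51.2 ± 9.27 CPM at 10 µM (−0.32 ± 0.12, edgeR adjusted p = 0.0604, and −0.19 without 10 µM replicate 1). LEF1 shares 5.20% of its exon bases with LEF1-AS1 on the opposite strand and TCF7 2.09% with SKP1. The expected counts of LEF1 were fractional in 7 libraries.

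The rest of the pathway was read from 5 further lists with 84 genes in all, of which 69 were tested. At 10 µM 12 of them (17.4%, against 10.5% of all tested genes) were lower and 2 (2.90%, against 8.57%) higher, with a median log2 change of −0.22. At 5 µM 2 (2.90%), CTHRC1 and PRICKLE1, were lower, a share near the 2.72% of all tested genes, and 0 were higher with edgeR, while 4 were lower and 1 higher at an adjusted p under 0.05 with no fold limit. No share of all tested genes was taken for that looser rule. The 5 µM calls of both were lost without 1 library, for CTHRC1 without any of the 6 DMSO and 5 µM libraries and for PRICKLE1 without DMSO replicate 1 or 2 or 5 µM replicate 1 or 2, and the count was 0 without 5 µM replicate 1, 5 without 10 µM replicate 1 and 4 without 10 µM replicate 2. Among 9 regulators of Wnt secretion and ligands outside the cell, 3 were lower: KREMEN1, a receptor for DKK1, at 7.41 ± 0.327 CPM in DMSO and 2.09 ± 0.896 CPM at 10 µM (log2 change −1.82 ± 0.26, edgeR adjusted p = 0.000539), CTHRC1, a cofactor of non-canonical signaling (−0.95 ± 0.12, adjusted p = 0.000286), and KREMEN2 (−0.64 ± 0.18, adjusted p = 0.0211). PORCN, the enzyme that attaches the lipid to Wnt ligands, was higher (0.63 ± 0.16, edgeR adjusted p = 0.0133). Of these 9, the 3 lower were 33.3%, against 10.5% of all tested genes, and the 1 higher was 11.1%, against 8.57%. The KREMEN2 call was lost without DMSO replicate 1 or 3 or 10 µM replicate 2 or 3, and the PORCN call without DMSO replicate 2 or 10 µM replicate 1.

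LGR6, a receptor for R-spondins, had the largest fall of the 69 genes at 10 µM, from 39.9, 36.9 and 38.9 CPM in DMSO and 29.4, 28.9 and 32.6 CPM at 5 µM to 7.21, 4.17 and 5.83 CPM at 10 µM. Most of the difference lay between the doses, and the log2 change from DMSO was −2.75 ± 0.17 (edgeR adjusted p = 2.59e-06). It was the only called gene of the 3 tested in the list of R-spondin, LGR and ligase genes (33.3%, against 10.5% of all tested genes). Of 25 cytoplasmic transducers, including the DVL, APC, GSK3 and casein kinase genes, CXXC5, an inhibitor of DVL, was the 1 called (−1.21 ± 0.19, edgeR adjusted p = 0.000928), and of 15 nuclear cofactors CTNNBIP1, which blocks β-catenin from TCF, was the 1 called (−0.64 ± 0.10, adjusted p = 0.00104). The called shares were 4% of these transducers and 6.67% of these cofactors, both under the 10.5% of all tested genes lower at 10 µM. The non-canonical co-receptors and planar polarity genes had 6 of 17 lower (35.3%, against 10.5%) and 1 higher (5.88%, against 8.57%). Those with the smallest p were PTK7 (−0.73 ± 0.09, edgeR adjusted p = 0.000160), PRICKLE1 (−0.94 ± 0.12, adjusted p = 0.000248) and CELSR2 (−1.19 ± 0.16, adjusted p = 0.000414), and MCC was the higher one (0.65 ± 0.18, adjusted p = 0.0186), a call lost without DMSO replicate 1 or 3 and without 10 µM replicate 3 (0.41). ROR1, a receptor for WNT5A that is named here after its value was seen, was lower as well, at 12.3, 10.3 and 12.1 CPM in DMSO and 3.59, 5.94 and 5.20 CPM at 10 µM (−1.23 ± 0.18, edgeR adjusted p = 0.000592).

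**Figure D4:**
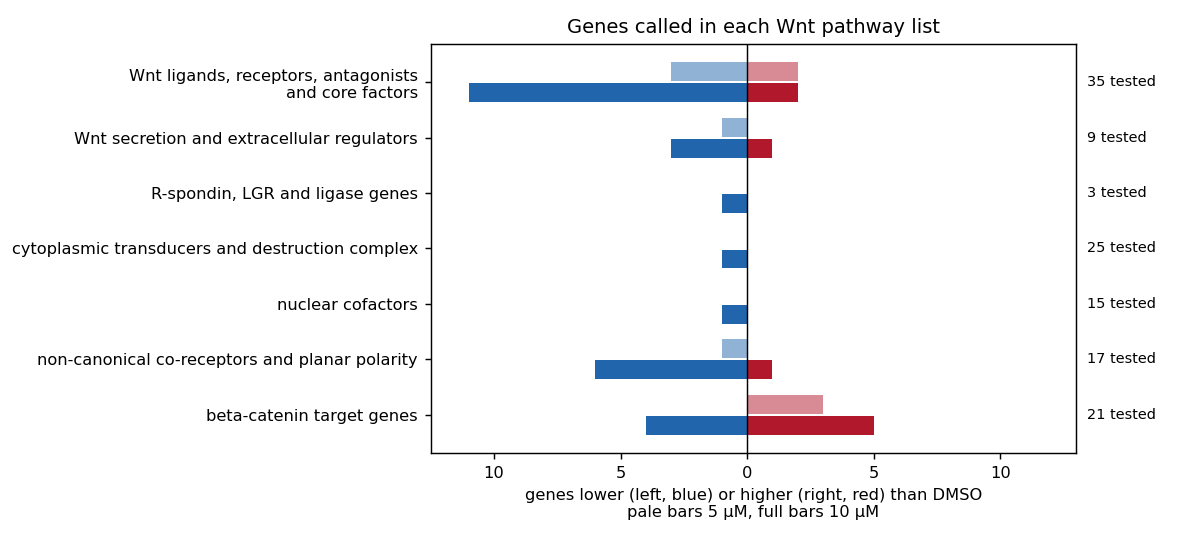
Number of genes called lower (to the left) or higher (to the right) than DMSO at 5 µM (pale bars) and 10 µM (full bars) in the Wnt genes and in 6 further lists, with the number tested at the right. The Wnt genes show 11 lower at 10 µM, the planar polarity list 6, and the β-catenin targets not among the Wnt genes 4 lower and 5 higher.

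Textbook target genes of β-catenin did not move in 1 direction. The list leaves out the targets AXIN2, LEF1, TCF7 and DKK1, which were counted with the Wnt genes. Of these, LEF1 and TCF7 were lower and DKK1 higher at 10 µM, and AXIN2 was not called (−1.54, edgeR adjusted p = 0.0566). Of 21 others tested, 5 (23.8%, against 8.57% of all tested genes) were higher and 4 (19%, against 10.5%) lower at 10 µM, and the median log2 change was 0.08. JUN, a subunit of AP-1, was the higher gene with the smallest p (1.32 ± 0.08, edgeR adjusted p = 2.01e-06), followed by ID2, an inhibitor of helix-loop-helix factors (3.08 ± 0.25, adjusted p = 1.63e-05), and TBX3 (0.61 ± 0.10, adjusted p = 0.00129). TNFRSF19 (−1.42 ± 0.10, edgeR adjusted p = 6.27e-06), the adhesion receptor gene CD44 (−0.78 ± 0.06, adjusted p = 1.32e-05) and NRCAM (−0.65 ± 0.18, adjusted p = 0.0188) led the lower genes. The call of TBX3 was lost without DMSO replicate 2 or 10 µM replicate 2 or 3, and that of NRCAM without DMSO replicate 2 or 10 µM replicate 3. SNAI2, MSX2 and TCF4 complete the 9, and are named after their values were seen. At 5 µM CCND1, ID2 and MSX2 (14.3%, against 2.14%) were higher and 0 were lower with edgeR, while 2 were lower at an adjusted p under 0.05 with no fold limit. For that looser rule no share of all tested genes was taken. CCND1, the gene of cyclin D1, also named after its values were seen, was at 621, 622 and 627 CPM under DMSO, 977, 1001 and 975 CPM with 5 µM and 680, 823 and 819 CPM with 10 µM, and was not called at 10 µM (0.31 ± 0.08, edgeR adjusted p = 0.0125). Of the list, many genes also answer to other pathways, and β-catenin protein was not measured.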

How the data were processed

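The 9 libraries hold mRNA of A375 cells kept for 24 h with DMSO or with TP-472 at 5 or at 10 µM, in 3 libraries each. The methods describe oligo-dT selection and strand-marking by dUTP, whereas the series design text describes depletion of ribosomal RNA, and this was not settled. Ribosomal RNA symbols took 8.20% to 19.9% of the counts. The authors deposited expected counts per gene symbol for all libraries, not scaled to depth; the submitters' processing notes name Bowtie2 2.1.0, RSEM 1.2.15 and hg38. For the annotation and the use of strand, nothing is given in the sources used here.

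Expected counts were rounded and fitted in 1 model of the 3 groups with edgeR 4.0.16 in R 4.3.3 (TMM factors 0.957 to 1.029, filterByExpr, quasi-likelihood F test, Benjamini-Hochberg adjustment over 16417 genes). Standard errors are the absolute log2 fold change over the square root of F. CPM per kb divides by the merged exon length in GENCODE 29. The code was tested on simulated data. No 2 libraries of a group agreed within sampling noise. Replicate numbers did not pair the libraries.

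The Wnt genes and further lists were chosen with earlier results of these data known. Named are all Wnt genes called in any comparison, CTNNB1, LRP5, LRP6 and AXIN1, and from each further list the 3 called genes with the smallest p at 10 µM in each direction; other tested Wnt genes are given by group mean or range, and AXIN2, WNT11 and a few list genes beyond the rule were named after their values were seen. Alternatives were edgeR with size factors of the DESeq2 type, the Wald test of DESeq2 1.42.0, no filter, at least 1 CPM in 3 libraries and a replicate block. Others were fits of 2 groups, no fold limit, each library left out and, added after seeing the data, no genes of ribosomal RNA. With 3 libraries against 3, p-values rest on a spread shared across genes.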

Additional observations from a re-analysis of the deposited data

How the results depend on the processing

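Over 17 alternatives, the number of Wnt genes lower at 10 µM than in DMSO stayed between 10 and 13 (11 reported) and the number higher between 2 and 3 (2 reported). Of the counts that moved by over 1.5 times, the 3 genes lower at 5 µM became 5 in a fit of the 2 groups, 7 with no fold limit and 3 to 5 with each library left out (5 without 5 µM replicate 3 or DMSO replicate 3), and the 2 higher became 1 to 2, with WNT9A lost without any 1 DMSO or 5 µM library. The 1 gene higher at 10 µM than at 5 µM became 2 with DESeq2, 2 with no fold limit and 1 to 2 with each library left out (2 without 10 µM replicate 1), and the 5 lower became 3 in a fit of the 2 groups and 4 to 7 with each library left out. The 2 other Wnt pathway genes called at 5 µM became 1 with the filter at 1 CPM, 1 with a replicate block, 6 in a fit of the 2 groups, 5 with no fold limit and 0 to 5 with each library left out (0 without 5 µM replicate 1, 5 without 10 µM replicate 1, 4 without 10 µM replicate 2). The 14 called at 10 µM became 28 with no fold limit and 12 to 16 with each library left out. Shares of all tested genes were not taken for the alternatives, so these counts are not set against the rest. Leaving out a library leaves fewer samples and dropping the fold limit admits smaller changes; the cause of the other moves was not tested.

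The replicate numbers did not pair the libraries (correlation of the deviations of same-numbered libraries −0.049 to 0.032 over 9 pairs). With the replicate block, 12 Wnt genes were lower and 2 higher at 10 µM and 3 lower and 2 higher at 5 µM, and between the doses 4 were lower and 1 higher. The median over genes of the difference in log2 change between an alternative and the main fit was at most 0.0216 in size. No Wnt gene called in a comparison turned its direction in the alternatives. Of the 22 not called at 10 µM, 7 turned in at least 1 alternative, among them WNT11 (1.38 reported, −0.22 without 10 µM replicate 1, −0.22 to 1.89 with each library left out). WNT6 could not be tested with the filter at 1 CPM. Genes under about 1 CPM are limited by depth, and every 10 µM value rests on 3 libraries that differ more than those of the other groups.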
